A study of Saccharomyces cerevisiae with 4 samples.

Results

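The probe sets of transfer RNA (tRNA) genes were followed in budding yeast, Saccharomyces cerevisiae, with the kinase Snf1 open to inhibition or not. Members were the probe sets of the array whose platform annotation named 1 gene and whose gene is a tRNA gene in the RefSeq table. There were 92 of them among 9335 probe sets, for 91 genes (1 gene, HSX1, has 2). All 92 were nuclear, so mitochondrial tRNA, with 0 probe sets chosen by the rule, was not analysed here. The RefSeq table holds 275 nuclear tRNA genes, of which the members cover 33.1%, on 13 of the 16 chromosomes.

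The data came from 4 Affymetrix Yeast Genome S98 arrays, with 2 for the Snf1-I132G allele and 2 for wild-type Snf1, and all cells were treated alike. Cells grew in medium without uracil and with 2% glucose, were shifted to 2% raffinose with 0.05% glucose for 120 min, and received 2NM-PP1 at 25 µM for a further 40 min. Snf1, a relative of the mammalian AMP-activated kinase, lets cells use sugars such as raffinose when glucose runs out, and 2NM-PP1 is a pyrazolopyrimidine meant to inhibit the I132G form and not the wild-type one. The RNA of each strain was combined from 3 transformants and run in duplicate. Every array came from inhibitor-treated cells, so an effect of the allele itself and inhibition of the kinase cannot be told apart. The labels do not say whether the duplicates are separate cultures, so p-values measure only how these arrays spread, which may be technical.

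Transfer RNAs are short RNAs that carry amino acids to the ribosome and read codons through their anticodon. In yeast the nuclear genes are transcribed by RNA polymerase III from promoter elements inside the gene, in many near-identical copies spread over the chromosomes. The transcript is trimmed at both ends, in some cases spliced, and chemically modified, and Maf1 is the known repressor of the polymerase when nutrients are short. Mature tRNAs carry no poly(A) tail, and the sources used here do not give the primer that copied the RNA before labelling. The signals do not separate mature tRNA from its precursors. Of the genes, 72 had a systematic name only (YNC followed by a chromosome letter, a number and a strand letter), and no source used here gives their amino acid. Amino acids are therefore given for the 19 genes with a gene name, from general knowledge of these names, and the other probe sets are grouped by gene length, which is 71 to 84 bases.

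Most tested tRNA probe sets rose in Snf1-I132G. Of the 92 members 83 passed the brightness filter and were tested, and of these 63 rose, 0 fell and 20 did not pass (limma, Benjamini-Hochberg adjusted p under 0.05 over all 6956 probe sets tested). That is 75.9% of the tested members, where 10.2% of all tested probe sets were called higher and 17.4% lower. At an unadjusted p under 0.05, 68 members were higher and 0 lower. The median log2 difference of the tested members was 1.47, on the scale log2(signal + 16) and as Snf1-I132G minus Snf1, against -0.10 over all tested probe sets. In the 63 that rose, the ratio of the mean signals was 2.01 to 5.65, with a median of 3.11. A member that passes the filter only through its Snf1-I132G arrays had to differ. Of the 83, 78 reached the filter on the Snf1 arrays by themselves, and 61 of those 78 rose.

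The median signal of the 83 tested members was 352 on replicate 1 and 322 on replicate 2 of Snf1-I132G, against 140 and 77.0 in Snf1. Over all tested probe sets the medians ran the other way, at 237 and 255 for Snf1-I132G and 268 and 293 for Snf1. In 75 members both Snf1-I132G arrays lay above both Snf1 arrays, in 1 they lay below, and in 7 the groups overlapped, where 26.2% of all tested probe sets lay above and 40.9% below without overlap. In 46 members the lower Snf1-I132G array was at least 2-fold above the higher Snf1 array, where 3.82% of all tested probe sets were.

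**Figure D1:**
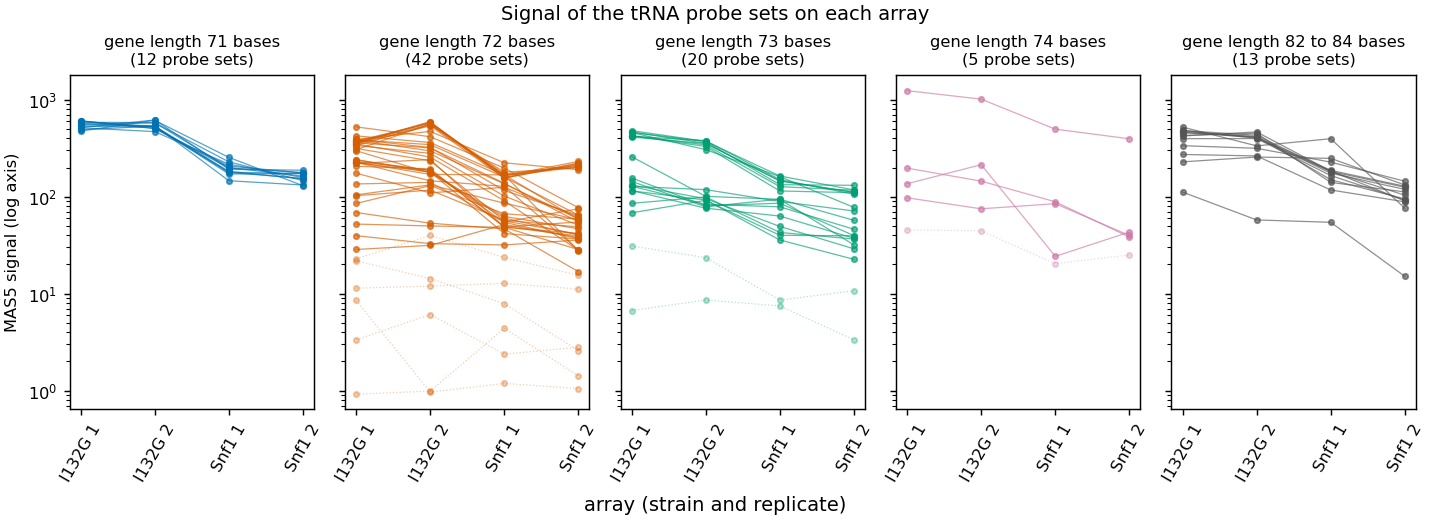
Each line is 1 tRNA probe set, with its MAS5 signal (log axis) on the 4 arrays, in panels by the length of its gene; dotted lines are the 9 probe sets that did not pass the brightness filter. Most solid lines step down from the 2 Snf1-I132G arrays to the 2 Snf1 arrays, and all 12 probe sets of 71-base genes do so.

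**Figure D2:**
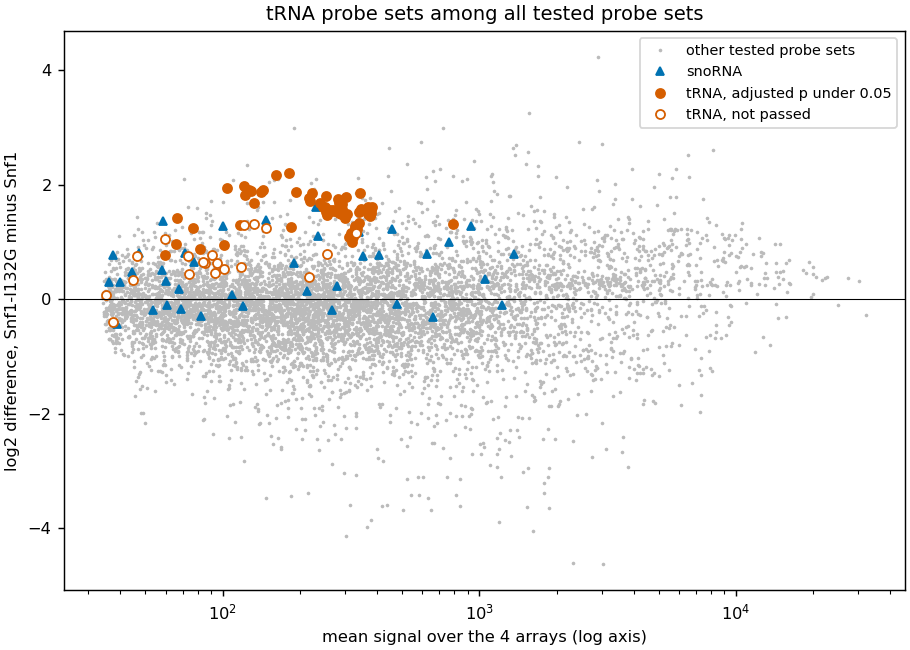
The log2 difference of every tested probe set (Snf1-I132G minus Snf1) is plotted against its mean signal over the 4 arrays (log axis), with tRNA and snoRNA probe sets marked. Of 83 tRNA points 82 lie above 0 and 64 lie above 1, while the median of all tested probe sets is -0.10.

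The name of a probe set tells how its probes were chosen. A plain _at marks probes meant for 1 gene, _f_at marks a family of similar sequences that share probes, _s_at marks probes found in more than 1 transcript, and _i_at an incomplete set of unique probes. Of the 92 members 75 end in _f_at, 13 in _s_at, 3 in a plain _at and 1 in _i_at, so most members cannot be credited to their annotated gene alone. Members that share probes or sequence are also not independent measurements. Of 72 tested _f_at members 58 rose (median 1.50), and of 9 tested _s_at members 5 rose (median 1.05). Neither of the 2 tested members with a plain _at name passed (limma, 0 also at an unadjusted p under 0.05), at a median of 0.74. Among _f_at probe sets that are not members 69 of 412 rose and 10 fell, which is 16.7% higher, at a median of 0.31. For _s_at probe sets that are not members 74 of 478 rose and 48 fell, which is 15.5% higher, at a median of -0.003. Among plain _at probe sets that are not members 444 of 5751 rose and 1117 fell, at a median of -0.16. The differences between these groups of probe sets were not tested.

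**Figure D3:**
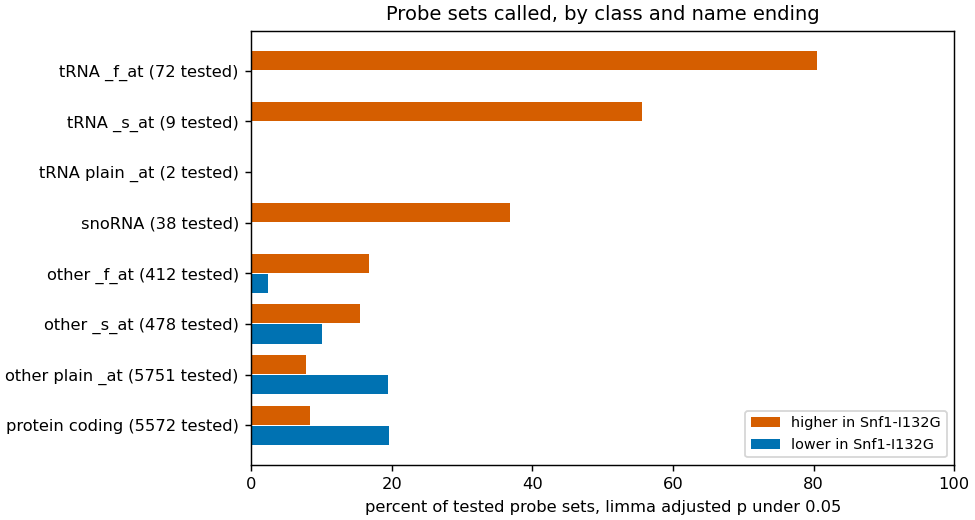
Bars give the percent of tested probe sets called higher (orange) or lower (blue) in Snf1-I132G, for tRNA probe sets by name ending, for snoRNA, for probe sets of other kinds by name ending and for protein-coding genes. The tRNA _f_at bar stands at 80.6% and that of other _f_at probe sets at 16.7%, and no tRNA probe set is in a blue bar.

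Grouped by gene length, the probe sets of 71-base genes were the most uniform. All of these end in _f_at, several have near-equal signals, and they include those of SUF16, SUF17 and SUF23, glycine genes described below. They may read shared sequences, so they are not 12 independent measurements. All 12 rose, with log2 differences of 1.34 to 1.86 and signals of 470 to 619 on the Snf1-I132G arrays (476 to 609 on replicate 1 and 470 to 619 on replicate 2). On the Snf1 arrays the same probe sets lay at 146 to 255 and at 130 to 188. Of 36 tested probe sets of 72-base genes 27 rose, with differences of 0.87 to 2.20. The widest gap among these 27, picked after their values were seen, lay between 1.28 and 1.67, with 11 below it and 16 above. SUF2, a tested 72-base member that did not pass, lies inside the gap at 1.32. Of 18 tested probe sets of 73-base genes 12 rose, by 0.77 to 1.61. Of 4 tested probe sets of 74-base genes 3 rose, and of 13 for genes of 82 to 84 bases 9 rose, by 1.27 to 1.75. No length group held a fall (limma, 0 also at an unadjusted p under 0.05). For comparison, 10.2% of all tested probe sets were called higher and 17.4% lower.

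Chromosome IV held the most tested members, 13, of which 11 rose, and of 12 on chromosome X 10 rose. On 11 of the 13 chromosomes at least 1 member rose, and the exceptions were VII with 1 tested member and XIV with 2, where 0 passed in limma (0 also at an unadjusted p under 0.05). The 2 on chromosome XIV are SUF6 and SUF10. With same-numbered arrays as a block, the member on VII and SUF10 on XIV passed, so that each of the 13 chromosomes had an annotated member that rose. These are the chromosomes of the annotated genes. Most members share probes with similar genes and may read copies on other chromosomes, so the counts do not place the rise at these genes. For comparison, 10.2% of all tested probe sets were called higher, or 19.5% with the block.

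**Figure D4:**
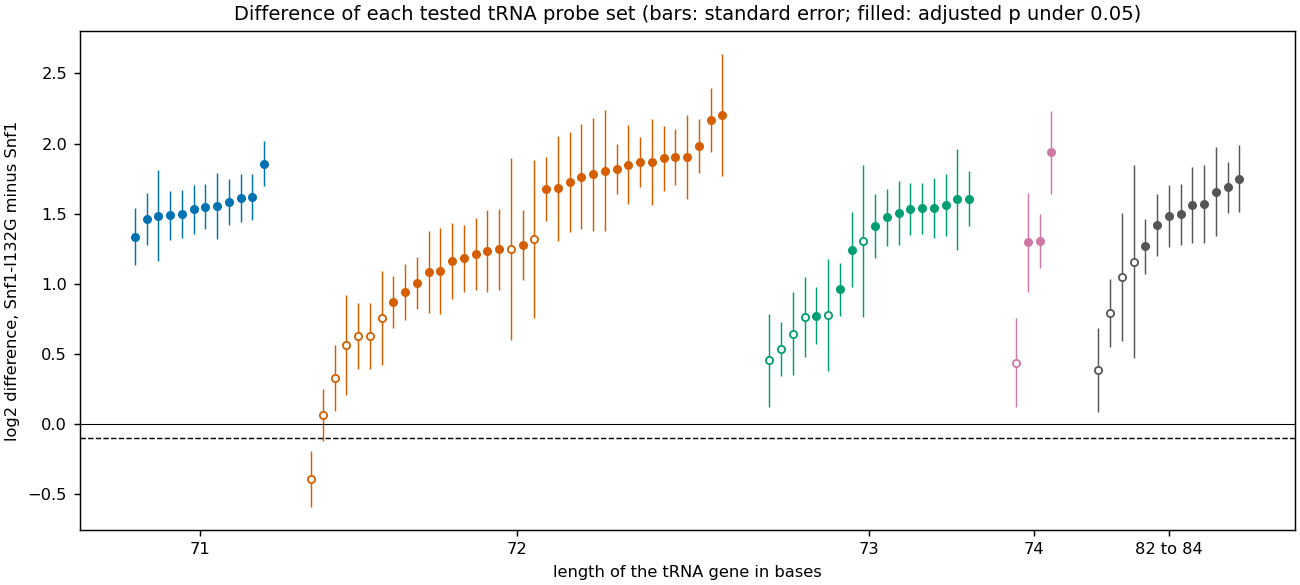
Points are the log2 differences (Snf1-I132G minus Snf1) of the 83 tested members, ordered by size within each gene length. Bars are 1 standard error of the limma fit, and filled symbols mark an adjusted p under 0.05. The dashed line is the median of all tested probe sets, -0.10, and 1 member lies below it, at -0.39.

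The largest rise among the members was that of YNCE0008C (probe set 3364_f_at), a 72-base gene on chromosome V. Its signal was 350 and 257 in Snf1-I132G and 90.5 and 28.0 in Snf1. The groups did not overlap, and the Snf1 arrays lay more than 3-fold apart. Its log2 difference was 2.20 ± 0.43 (SE), with an adjusted p of 0.018 in limma, and without replicate 1 of Snf1-I132G it was 1.99 and did not pass (adjusted p = 0.057). This member ranked 24 among the rises of all tested probe sets, so larger rises were found in other genes.

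YNCB0015W on chromosome II (3479_f_at) had signals of 315 and 235 against 56.3 and 41.0, a ratio of means of 5.65, the highest of the members that rose. Its log2 difference was 2.17 ± 0.23 (limma, adjusted p = 0.0040), and the pairs of arrays with the same number gave 2.19 and 2.14. YNCD0011W on chromosome IV (3437_f_at) had 224 and 181 against 41.6 and 36.6, a difference of 1.98 ± 0.19 (limma, adjusted p = 0.0035). Each of these probe sets is for a 72-base gene, and in each the lower Snf1-I132G array stood more than 2-fold above the higher Snf1 array.

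The _s_at probe set of YNCK0003W, a 74-base gene on chromosome XI (3858_s_at), had 136 and 214 in Snf1-I132G and 24.3 and 43.2 in Snf1. Both strains were higher on replicate 2, and the pairs gave 1.92 and 1.96. Its difference was 1.94 ± 0.30 (limma, adjusted p = 0.0093). This member passed the filter only through its Snf1-I132G arrays, so it had to differ, and its p-value is no support for a rise. YNCE0004C on chromosome V (3358_f_at) had the smallest adjusted p of all members, 0.0029 in limma. Its signals were 549 and 541 against 146 and 131.9, and its difference was 1.86 ± 0.16. It is a 71-base gene.

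The other members among the 10 largest rises were all on probe sets of 72-base genes. They were YNCJ0014C at 1.90 ± 0.30, YNCJ0011W at 1.90 ± 0.20, YNCM0033C at 1.89 ± 0.23, YNCD0009W at 1.87 ± 0.30 and YNCK0006C at 1.87 ± 0.18. YNCK0006C (3814_f_at) was the steadiest of them, with 220 and 242 in Snf1-I132G against 48.7 and 54.9 in Snf1. The adjusted p from limma was at most 0.011 for these 5. All 5 probe sets end in _f_at, and 2 of them had near-equal signals. YNCJ0011W had 231 and 188 in Snf1-I132G against 49.0 and 39.4 in Snf1, and YNCM0033C had 239 and 186 against 54.4 and 36.9. Such probe sets may read shared sequences, so the 5 are not independent measurements.

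The 6 members with the highest mean signal all rose. Signals of different probe sets do not rank transcripts, so this selection shows only members measured well above the dim range. YNCJ0015W (3867_s_at), a 74-base gene on chromosome X, had 1242 and 1016 in Snf1-I132G and 498 and 396 in Snf1, a difference of 1.31 ± 0.19 (limma, adjusted p = 0.0086). The next 5 were all 71-base genes with _f_at probe sets. Of these YNCP0009W had 586 and 581 against 199 and 163 and differed by 1.61 ± 0.17. YNCB0005C, YNCP0023W, YNCD0020W and YNCD0001W differed by 1.55 ± 0.23, 1.50 ± 0.17, 1.46 ± 0.18 and 1.49 ± 0.18. In all 6 both Snf1-I132G arrays were above both Snf1 arrays, and the highest adjusted p of these was 0.0089 in limma.

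Among the genes with a known amino acid, glycine had the most members, with 7 probe sets, of which 5 were tested. Many of these genes carry SUF names because mutant copies suppress frameshift mutations. SUF16, SUF17 and SUF23 encode glycine tRNA with the anticodon GCC, and all 3 rose. SUF17 (3645_f_at) had 567 and 529 in Snf1-I132G and 179 and 174 in Snf1, a difference of 1.55 ± 0.16 (limma, adjusted p = 0.0037). SUF16 had 513 and 470 against 216 and 158, a difference of 1.34 ± 0.20 (adjusted p = 0.0090). SUF23 had 476 and 614 against 255 and 130, a difference of 1.49 ± 0.33 (adjusted p = 0.024).

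The glycine tRNA genes of the UCC anticodon had different values. SUF6 (3649_f_at) had 28.5 and 31.5 in Snf1-I132G and 51.6 and 37.9 in Snf1. It was the only tested member with a negative difference, -0.39 ± 0.20, which did not pass (limma, adjusted p = 0.20). SUF1 had 39.6 and 32.8 against 31.8 and 35.7, so its groups overlapped, at 0.067 ± 0.19 (limma, adjusted p = 0.80). SUF3 and SUF5, of the CCC anticodon, were too dim to test, with signals of 2.38 to 21.8. The UCC and CCC probe sets are near the dim end of the arrays, and the difference between them and the GCC probe sets was not tested.

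The 2 proline tRNA genes, SUF2 and SUF10, had widely spaced Snf1 arrays. SUF2 (3451_f_at) had 227 and 146 in Snf1-I132G and 128 and 28.1 in Snf1, and SUF10 (3668_f_at) had 227 and 170 against 168 and 27.8. In both the groups did not overlap, and replicate 2 of Snf1 was far below replicate 1. Their differences of 1.32 ± 0.56 and 1.25 ± 0.65 did not pass (limma, adjusted p = 0.14 and 0.21). With the pair of same-numbered arrays as a block both passed (limma, adjusted p = 0.0027 and 0.013).

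Of the serine tRNA genes, SUP16 had 336 and 316 against 227 and 144, which is 0.79 ± 0.24 (limma, adjusted p = 0.061, and 0.0052 in the blocked fit). SUP19 (3378_f_at) had 229 and 257 against 249 and 132.2, with overlapping groups and a difference of 0.38 ± 0.30 (limma, adjusted p = 0.38). In SUP19 the Snf1-I132G array was below the Snf1 array in pair 1, at -0.11, and above it in pair 2, at 0.88. Without replicate 2 of Snf1 its difference was -0.035.

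The other named genes were dimmer. TGA1, for an alanine tRNA, rose from 40.0 and 39.5 to 68.1 and 91.7, by 0.77 ± 0.20 (limma, adjusted p = 0.040). SUP51, for a leucine tRNA, had 112 and 57.6 against 54.4 and 15.1, and CDC65, for a glutamine tRNA, had 68.7 and 53.3 against 46.5 and 16.9. Neither passed without the block (limma, adjusted p = 0.15 and 0.15), and with the block both did (adjusted p = 0.0023 and 0.018). SUP51 and CDC65 passed the filter only through their Snf1-I132G arrays, so they had to differ, and these p-values are no support for a rise.

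The initiator methionine tRNA, which starts every protein chain, was represented by IMT3 (3838_s_at). Its signals of 22.9 and 39.8 in Snf1-I132G and 23.6 and 15.4 in Snf1 overlapped and were below the filter, so it was not tested. The elongator methionine gene EMT5 was dimmer, at 3.35 to 8.59. So were the threonine gene TRT2, at 11.2 to 12.8 on all 4 arrays, and both probe sets of the arginine gene HSX1, at 0.919 to 8.51. In all, 9 members did not pass the filter, with signals of 0.919 to 45.4. The brightest of them was YNCL0038W, at 45.4 and 44.4 against 20.4 and 25.0, while SUF1 was the dimmest that was tested.

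The 3 members with a plain _at name are those whose probes were meant for 1 gene. TRR4 (3760_at), for an arginine tRNA, had 52.2 and 49.9 in Snf1-I132G and 48.2 and 28.5 in Snf1. Its groups did not overlap, but 0.33 ± 0.23 was short of the threshold (limma, adjusted p = 0.34, or 0.21 with the block). YNCG0028W (3243_at), an 82-base gene on chromosome VII, had 523 and 334 against 397 and 75.9. One Snf1 array lay inside the range of the Snf1-I132G arrays, and its log2 value of 1.16 ± 0.69 was short of it too (limma, adjusted p = 0.26), but passed with the block (0.012). TRT2, described above, was not tested.

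Of the 20 members that did not pass, 14 passed with the same-numbered arrays as a block. Among the 14 were SUP51 and CDC65, which had to differ to be tested. The other 6 passed in neither fit. The 6 were SUP19, TRR4, SUF1, SUF6, YNCK0017W and YNCB0011C. YNCJ0008W (3906_f_at) is an example, with 259 and 101 in Snf1-I132G and 94.0 and 31.9 in Snf1. Its pairs gave 1.32 and 1.29, and its difference of 1.30 ± 0.54 had an adjusted p of 0.13, or 3.4e-04 with the block. With the block 77 of the 83 were higher and 0 lower, where 19.5% of all tested probe sets were called higher and 28.5% lower.

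Both pairs of arrays showed the rise. In each pair 81 of the 83 members were higher in Snf1-I132G, with a median difference of 1.26 in pair 1 and 1.52 in pair 2. Of all 6956 tested probe sets 3043 were higher in pair 1 and 3061 in pair 2, at medians of -0.09 and -0.10. A rise of at least 2-fold in each pair was seen in 55 members and in 4.57% of all tested probe sets. If the duplicates are runs of 1 pool per strain, this shows only that the measurement repeats.

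**Figure D5:**
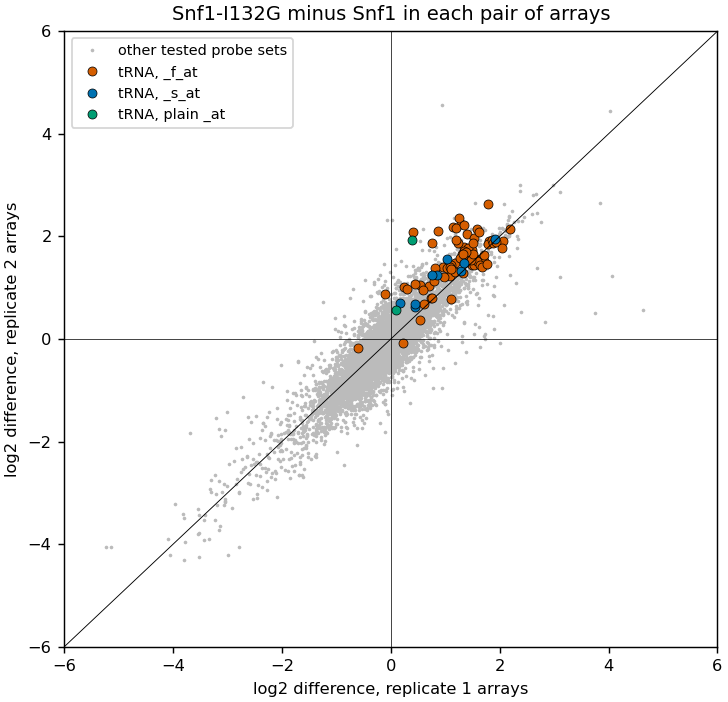
Each point is 1 tested probe set, with its log2 difference (Snf1-I132G minus Snf1) between the replicate 1 arrays on the horizontal axis and between the replicate 2 arrays on the vertical axis; the diagonal marks equal values. The tRNA probe sets lie mostly in the upper right, with medians of 1.26 and 1.52.

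Within a strain the members also moved together. On the Snf1 arrays 70 of the 83 members had a higher signal on replicate 1 than on replicate 2, with a median log2 gap of 0.41, while all tested probe sets had a gap of -0.05. In Snf1-I132G 57 were higher on replicate 1, with a median gap of 0.17 against -0.02. A set of 10 tested probe sets of 72-base genes ran the other way, with replicate 2 higher in both strains. Their median signal was 351 and 558 in Snf1-I132G and 161 and 208 in Snf1, and all 10 rose, with differences of 0.94 to 1.87. These 10 were picked after their values were seen. All end in _f_at and several have near-equal signals, so they may read shared sequences and are not 10 independent measurements.

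Part of the other small stable RNAs rose as well. Small nucleolar RNA genes, whose products guide the modification of ribosomal RNA, had 14 of 38 tested probe sets higher and 0 lower (limma, 18 and 0 at an unadjusted p under 0.05), at a median of 0.50. That is 36.8% higher, where 10.2% of all tested probe sets were. With the block 20 were higher, and the share to read beside the blocked counts here was 19.5% of all tested probe sets. Of 4 tested probe sets of spliceosomal small nuclear RNA genes 0 passed (limma, 2 higher at an unadjusted p under 0.05), at a median of 0.64, and 3 were higher with the block. Of 5 tested probe sets annotated to ribosomal RNA genes 1 rose, or 4 with the block, and in 3 of them the groups overlapped. Of the 10 control probe sets for 18S and 25S ribosomal RNA 8 had both Snf1-I132G arrays above both Snf1 arrays, where 26.2% of all tested probe sets did. Their median difference was 0.99 in pair 1 and 0.52 in pair 2, a reverse order of the pairs to that of the tRNA members. The brightest of these, a 25S probe set, had 1528 and 1818 in Snf1-I132G and 332 and 1001 in Snf1. The part of these RNAs in the tRNA result was not tested. The ratio of the 3′ to the 5′ probe set of actin, a sign of RNA integrity, was 1.74 and 1.51 in Snf1-I132G and 1.62 and 1.54 in Snf1, so the groups overlapped.

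Few protein-coding genes next to the tRNA genes rose. The 91 tRNA genes have 180 flanking protein-coding genes in the RefSeq table of assembly R64, and 146 of these had a tested probe set. Of the 146, 5 were higher and 38 lower in Snf1-I132G (limma), which is 3.42% higher and 26.0% lower, where 10.2% and 17.4% of all tested probe sets were. With the block 19 were higher and 53 lower, where 19.5% and 28.5% of all tested probe sets were. All tested probe sets are of more kinds than these genes. Of the 5572 tested probe sets of protein-coding genes 8.36% were higher and 1092 were lower. The median difference of the flanking genes was -0.14, close to the -0.10 of all tested probe sets and the -0.16 of the protein-coding ones.

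Few of the genes that make and mature tRNA passed the test. The shares of all tested probe sets, to be read beside each list, were 10.2% higher and 17.4% lower, or 19.5% and 28.5% with the block. Of 10 subunits of RNA polymerase III 0 passed (limma, 0 at an unadjusted p under 0.05 in either direction), at a median of 0.22, and RET1, the second-largest subunit, was at 0.31 ± 0.16 (adjusted p = 0.19). With the block 1 was higher, RPC37, at 0.60 ± 0.32 (limma, adjusted p = 0.22, or 0.0062 with the block). Among 10 initiation factors and the repressor, 0 rose and 1 fell. That was TFC4, a subunit of the factor TFIIIC that binds the internal promoter, with 122 and 78.1 against 206 and 191. Its difference was -0.91 ± 0.24 (limma, adjusted p = 0.040), and it did not pass without replicate 2 of Snf1-I132G or without either Snf1 array, nor with quantile or median scaling or without a filter. BRF1, a subunit of the initiation factor TFIIIB, had 389 and 334 against 108 and 321 and did not pass (0.88 ± 0.46, limma, adjusted p = 0.21, or 0.046 with the block). MAF1, the repressor gene, had 153 and 170 in Snf1-I132G and 167 and 176 in Snf1, at -0.076 ± 0.17 (limma, adjusted p = 0.76).

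Of 16 tested genes of tRNA end trimming and splicing 0 passed in limma, with 1 higher and 1 lower at an unadjusted p under 0.05, and the median was 0.38. With the block 6 were higher and 2 lower, where 19.5% and 28.5% of all tested probe sets were. Among these genes were SEN15 of the splicing endonuclease at 0.55, and RPR2 at -0.72. RPR2 is a subunit of the RNase P that cuts the 5′ end of the precursor. Of 8 genes of tRNA export and import 0 passed in limma, with 1 higher and 1 lower at an unadjusted p under 0.05. CEX1, for a cytoplasmic tRNA export factor, was closest, with 121 and 109 against 195 and 175 and -0.62 ± 0.18 as the log2 value (limma, adjusted p = 0.050, and 0.013 in the blocked fit).

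Of 49 genes of tRNA modification 3 rose and 0 fell (limma, 6 and 0 at an unadjusted p under 0.05), or 11 and 0 with the block, at a median of 0.23. The shares of higher calls are 6.12% and 22.4%, near the 10.2% and 19.5% of all tested probe sets. PUS1, for a pseudouridine synthase, had 1697 and 1646 in Snf1-I132G and 624 and 801 in Snf1, a difference of 1.22 ± 0.18 (adjusted p = 0.0081). TAD3, for a subunit of the enzyme that makes inosine in the anticodon, was at 0.89 ± 0.23, and KTI12, needed for wobble uridine modification with Elongator, at 0.76 ± 0.20. TAD3 and KTI12 did not pass without replicate 2 of Snf1-I132G or without either Snf1 array, and the count was then 1. Neither passed with centring on hybridization controls, and KTI12 did not pass without a filter. DUS3, for a dihydrouridine synthase, was at 0.92 ± 0.28 and did not pass (limma, adjusted p = 0.058, or 8.0e-04 with the block).

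Of 9 genes of RNA surveillance and tRNA decay 1 rose and 0 fell (limma, 2 and 1 at an unadjusted p under 0.05). Over all tested probe sets 10.2% were called higher and 17.4% lower. MET22 encodes a phosphatase of sulfate assimilation whose substrate blocks the exonucleases of tRNA decay. It had 1692 and 1959 in Snf1-I132G and 355 and 438 in Snf1, a difference of 2.16 ± 0.18 (adjusted p = 0.0026). XRN1, for one of those exonucleases, was at -0.57 ± 0.18 (limma, adjusted p = 0.069, or 0.0082 with the block). AIR1, a zinc-finger protein of the nuclear surveillance complex TRAMP, had 163 and 353 against 58.8 and 126 and was at 1.32 ± 0.45 (limma, adjusted p = 0.081, or 2.4e-04 with the block).

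For the mitochondria the tRNAs themselves were not measured, but genes of their maturation were. RPM2, the protein subunit of mitochondrial RNase P, fell, with 108 and 94.7 in Snf1-I132G and 733 and 667 in Snf1, a difference of -2.61 ± 0.17 (limma, adjusted p = 0.0016). It was the only one of 7 genes of mitochondrial tRNA maturation and transcription that passed, where 17.4% of all tested probe sets were called lower. With the block 2 were lower, where 28.5% of all tested probe sets were. RPO41, the mitochondrial RNA polymerase, was at -0.59 ± 0.19 (limma, adjusted p = 0.076, or 0.012 with the block). Of 5 tested genes encoded by the mitochondrial genome 0 passed (limma, 0 also at an unadjusted p under 0.05), among them COX1 at -0.036 ± 0.17.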

How the data were processed

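The deposited signal intensities are linear and, per the submitters' processing notes, came from MAS5, with no version given in the sources used here. With 2% of the probe sets trimmed at either end, array means ran from 500.4 to 500.5, so the arrays had been scaled to a common average, and a shift of most transcripts in 1 direction would not show. Array medians were 131.9 to 161. Names came from the platform annotation and RefSeq's R64 gene table. Of 9275 non-control probe sets 6504 had 1 gene, 328 several and 2443 none given.

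Signals were taken as log2(signal + 16), which understates the change of dim probe sets. Probe sets whose mean log2 signal reached the 25th percentile were fitted together with limma 3.58.1 in R 4.3.3 (lmFit, eBayes with an intensity trend, no covariates). Benjamini-Hochberg adjustment ran over all 6956. The SE is that of the limma fit, whose variance is moderated by that of other probe sets (3.63 prior beside 2 residual degrees of freedom). It is therefore not the spread of these arrays alone. There are 2 arrays a group, and that number limits the precision. The fit was checked on simulated data.

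Same-numbered arrays were treated as pairs, because arrays of both strains with 1 number share a string in their descriptions, a reading that is not certain. Their deviations from the group means correlated at r = 0.515 across probe sets. The members, the gene lists and the tests were chosen with earlier results of these data known. Named members were the 10 largest rises, the 6 with the highest mean signal, the 4 largest and 4 smallest differences that did not pass, the initiator methionine gene, and the extremes of glycine. Up to 4 genes with the smallest p were named from each list, and MAF1. The other members with a gene name, the members that passed in neither fit and YNCL0038W were named after their values were seen. A gene in a list was taken at its probe set with the highest mean. No sequence of a tRNA or a probe was in the sources used here, so none is printed.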

Additional observations from a re-analysis of the deposited data

How the results depend on the processing

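With 2 arrays a group and most members sharing probes, members are not independent, and near-identical gene copies were not separated. Between 58 and 65 of the 83 members were higher under quantile normalization, median centring and centring on hybridization controls, where the median of all tested probe sets was 0.02, 0.09 and -0.33. Pseudocounts of 1 and 64, eBayes without a trend and robust eBayes gave 62 or 63. Without a filter 60 of 92 were higher, and with a filter at the 50th percentile 46 of 49. The replicate block gave 77 of 83. Leaving out 1 array gave 46 to 55. None of these settings called a member lower, where 6.48% to 30.4% of all tested probe sets were called lower and 4.67% to 13.8% higher in the settings other than the block. The median difference of the members, 1.47, was 1.24 with centring on hybridization controls, 1.22 with a pseudocount of 64, 1.26 within pair 1, 1.22 to 1.64 with 1 array left out and 0.74 over the 2 members with a plain _at name, of which 0 were higher (1 with the block). Of the 25 tested members that the naming rule gives, the block changed the call of 4, all to higher. It did so for SUP16, SUP51 and CDC65 outside the rule, of which SUP51 and CDC65 passed the filter only through their Snf1-I132G arrays. SUF1 was at -0.17 with centring on hybridization controls and at -0.027 to 0.16 with 1 array left out, negative without replicate 1 of Snf1-I132G. SUP19 was at -0.035 to 0.80 with 1 array left out, negative without replicate 2 of Snf1. Neither passed in any of these. Over all tested probe sets the block called 1354 higher and 1984 lower against 709 and 1212 without it, and leaving out a Snf1 array called 325 to 326 higher and 451 to 509 lower. The count among the 78 members bright enough on the Snf1 arrays alone, 61, was added after seeing the data. Mitochondrial tRNA had no value under any setting. The causes were not tested.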
